A study of Mus musculus with 18 samples.

Results

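The enzymes that join drugs, hormones, bile pigments and reactive aldehydes to a water-soluble group, or that convert them beforehand, were followed through colitis in the distal colon of mice lacking interleukin 10. They were taken by name: every gene of the deposited table whose symbol begins as a UDP-glucuronosyltransferase (Ugt1 or Ugt2), a cytosolic or kappa glutathione S-transferase (Gst), a microsomal glutathione S-transferase (Mgst), a sulfotransferase (Sult), a carboxylesterase (Ces), an aldehyde dehydrogenase (Aldh) or an aldo-keto reductase (Akr). This gave 86 of 16321 genes: 7 Ugt, 20 Gst, 3 Mgst, 10 Sult, 13 Ces, 20 Aldh and 13 Akr. All 86 passed the filter on low counts, which kept 16300 genes. Of the 130 genes that GENCODE annotates under the same names, the other 44 are not in the deposited gene table.

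In all, 6 groups of 3 BALB/c mice each were sequenced, 1 library of polyadenylated RNA from a distal colon biopsy per mouse: Il10KO mice aged 6, 8, 10, 12 and 14 weeks, and wild-type (WT) mice aged 6 weeks. The Il10KO mice lack the gene in every cell and develop colitis without a further agent. No older WT group was analysed, so disease and growth cannot be told apart after week 6, and all 3 WT mice came from cage G, which held no Il10KO mouse, so that cage and genotype cannot be told apart at week 6. The 15 Il10KO mice came from 6 cages that spanned ages: cage B held mice of 4 ages, A and C of 3, E and F of 2, and D of 1.

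Conjugation is the second step of detoxification. Ugt enzymes in the endoplasmic reticulum transfer glucuronic acid, Sult enzymes in the cytosol transfer sulfate, and Gst enzymes attach glutathione, while the membrane-bound Mgst proteins also reduce lipid peroxides. Ces enzymes split esters and amides, Aldh enzymes oxidise aldehydes to acids, and Akr enzymes reduce aldehydes and ketones to alcohols. In the colon these enzymes lie mostly in the epithelium, where they meet bacterial products, bile acids, dietary chemicals and the aldehydes formed when lipids are oxidised. Several of their genes are known targets of the stress-sensing factor NRF2 or of the aryl hydrocarbon receptor.

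Library totals were 26495521 to 35497101 estimated counts, of which the 86 genes took 0.388% to 0.805%. Il10 itself, not in the gene table, had 1, 0 and 3 estimated counts in the WT libraries by the transcript tables, and 0 in all 15 Il10KO libraries. Il10KO week 14 replicates 2 and 3 stood apart: their RNA integrity numbers were 6.5 and 5.8, against 8.4 to 9.3 in the other 16 libraries, and their TMM scaling factors were 0.581 and 0.680, against 0.875 to 1.19. Pearson's r across genes was 0.796 to 0.961 among the week 14 libraries and 0.984 to 0.986 among those of Il10KO week 6. A list of 10 colonocyte markers summed to 7305 to 16230 CPM, counts scaled to a common library total, over the 18 libraries. Below, CPM are TMM-scaled, TPM are per length and used where levels of genes or families are compared, sums in CPM are named as such, changes are log2 fold changes ± SE from 1 edgeR fit of all 18 libraries, and a call is a Benjamini-Hochberg adjusted p under 0.05 over all 16300 genes.

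Summed TPM showed how much transcript each family had and how it differed by age in the knockout. Over all libraries the most abundant members per length were Aldh2, the mitochondrial acetaldehyde dehydrogenase, at a mean of 771 TPM, Mgst3 at 615, Akr1a1, the aldehyde reductase, at 496, Gsto1 at 303 and Sult1b1 at 299. The 86 genes together had 7484, 6697 and 7114 TPM in Il10KO week 6 libraries, against 8359, 7029 and 7859 TPM in WT. The week 8 libraries had 6846, 6194 and 6261 TPM, and those of week 10 had 3434, 4459 and 5010 TPM. In week 12 libraries the sum was 5319, 4752 and 5716 TPM. It was 6878, 3101 and 3758 TPM in those of week 14. Week 10 lay wholly below week 6, and at week 14 replicate 1 lay within the week 6 range while the libraries of low RNA integrity lay far under it.

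The families did not share 1 course. The Aldh sum was 228, 491 and 1073 TPM at week 10, against 1903, 1495 and 1747 at Il10KO week 6. The Ugt sum was 90.9, 112 and 181 TPM at week 10, against 384, 390 and 377 at week 6. Gst, Sult and Akr sums were also wholly lower at week 10, with Gst at 1007, 1212 and 1372 TPM, against 1997, 1893 and 2016 at week 6, and Akr at 770, 749 and 821 TPM, against 1067, 1036 and 1102. The Mgst sum was not: it ran from 732 to 1444 TPM over all 18 libraries, and its week 10 values of 732, 1115 and 825 TPM straddled the 950, 830 and 876 TPM of week 6. The Ces sum overlapped as well, at 236, 342 and 399 TPM at week 10, against 519, 324 and 352 TPM at week 6. On this scale the table as a whole was lower: the median change of all genes at week 10 was -0.34 on log2(TPM + 1), against 0.01 with TMM. Summed in TMM-scaled CPM, Ugt, Gst and Aldh still lay wholly below week 6 and Sult overlapped. Akr had 1084, 1048 and 812 CPM at week 10, against 874, 922 and 909 at week 6, which overlap. Ces overlapped too, at 569, 760 and 613 CPM at week 10, against 631, 418 and 422 at week 6. Its mean was higher at week 10 in CPM (647.3 against 490.5) but lower in TPM (325.5 against 398.3). Mgst had 569, 863 and 476 CPM at week 10, wholly above the 440, 419 and 426 CPM of week 6. These sums are descriptions and carry no test. In whole tissue, fewer cells of a type and less RNA per cell cannot be told apart.

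**Figure D1:**
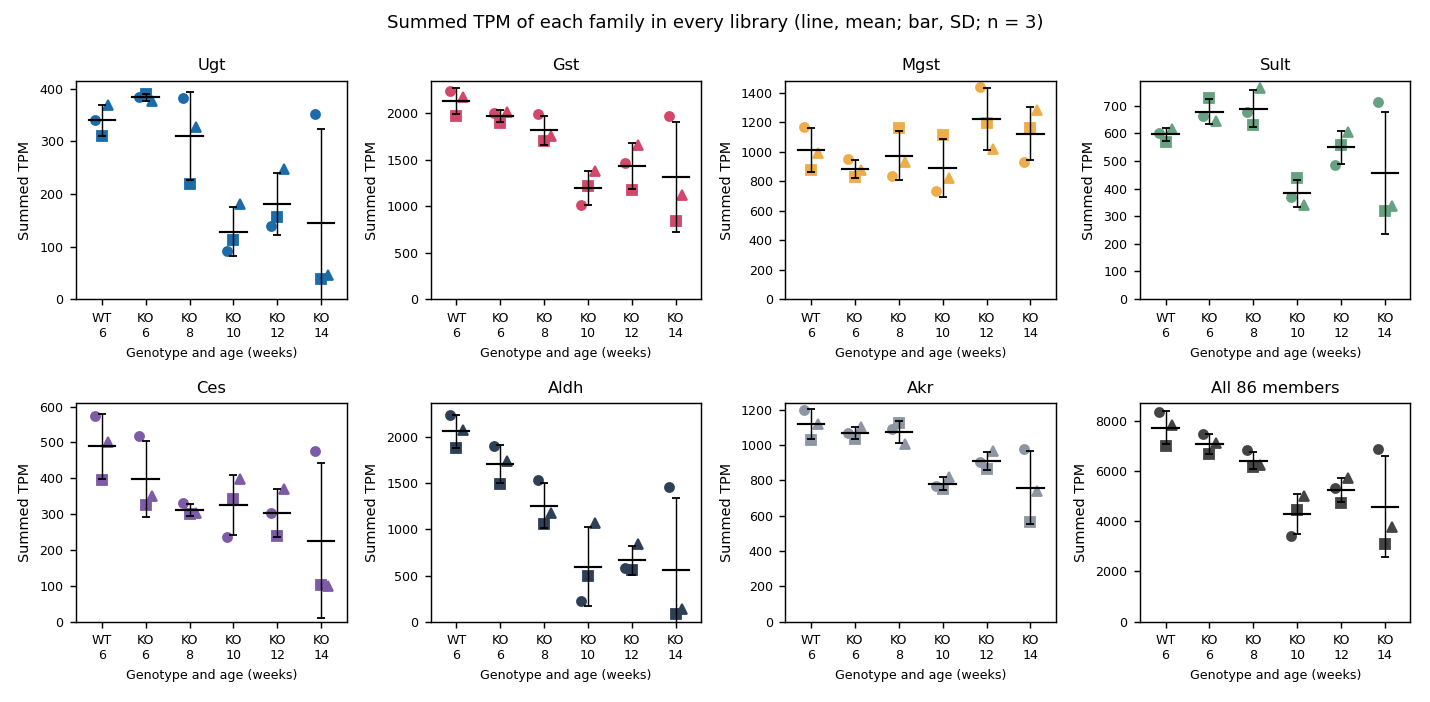
Summed TPM of each family and of all 86 members in every library, by genotype and age in weeks; points are replicates 1 (circle), 2 (square) and 3 (triangle), the line is the mean and the bar the SD of 3 libraries. The Aldh and Ugt sums at week 10 lie below every week 6 value, while the Mgst sums overlap on this TPM scale, and at week 14 replicate 1 stands away from the other two in most panels.

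At 6 weeks the comparison of Il10KO with WT asks what differs before the later ages. No member was called by edgeR, with a background of 0% of all genes, and 0 members had an unadjusted p under 0.05, where 2.42% of all genes did. DESeq2 also called 0 members, where it called 0.154% of all genes. A voom fit with a weight per group, which called 2.17% of all genes, called 1 member, Ces2b, a carboxylesterase, at -0.89 (adjusted p = 0.0423). Its CPM were 12.5, 6.73 and 7.46 in Il10KO week 6 libraries, against 16.7, 15.2 and 16.0 in WT, so the groups did not overlap. The median change of the 86 members was -0.05, against -0.01 over all genes.

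At week 8 no member was called by edgeR either, against 0.0675% of all genes, and 5 of 86 members had an unadjusted p under 0.05, where 7.03% of all genes did: Ces2f and Gstp3 with positive changes, and Akr1b3, Akr1c19 and Aldh1a2 with negative ones. Ces2f had 2.79, 30.1 and 25.2 CPM at week 8, against 1.16, 2.40 and 1.63 at Il10KO week 6. Every week 8 value lay above every week 6 value, but replicate 1 was close to them. The change of 3.48 ± 0.79 did not pass in edgeR (adjusted p = 0.122). It passed in DESeq2 (3.49, adjusted p = 0.000363), with RNA integrity as a covariate (3.45, adjusted p = 0.0221), without the week 14 libraries (3.46, adjusted p = 0.0332) and without week 8 replicate 1 (3.99, adjusted p = 0.0116). DESeq2 also called Akr1b3 at -0.45, and the fit with RNA integrity called Gstp3 at 1.91. Those 4 fits called 1.47%, 1.18%, 0.828% and 1% of all genes in the order given.

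At week 10 members were called in both directions. Of the 86 members, 5 rose and 16 fell against Il10KO week 6, that is 21 called, where 24% of all genes were called. Among all genes 14.6% were called higher and 9.48% lower, and among the members 5.81% and 18.6%. The median change was -0.43 over the members and 0.01 over all genes. The members that rose were Ces2f, Gstp3, Ces2e, Mgst1 and Akr1b10. The members that fell were 3 Ugt, 5 Gst, 1 Sult, 2 Ces, 3 Aldh and 2 Akr genes. With WT week 6 as the base, 29 members were called, 20 of them among those 21, and 33.7% of all genes; both comparisons share the week 10 libraries. Beside these changes, 5 of 6 neutrophil markers rose, with summed levels of 4942, 198 and 29.4 CPM at week 10, against 3.30, 2.56 and 2.60 at week 6, where Mmp8 was at 0 in 1 library. Fibroblast markers fell in 5 of 6, endothelial in 4 of 6, enteric glia and neuron in 3 of 6 and adipocyte markers in 2 of 5. Smooth muscle markers had 0 of 6 called, and 1 of 6 macrophage and monocyte markers rose. The summed colonocyte list had 7762, 10370 and 11250 CPM at week 10, against 11520, 11520 and 11980 at week 6, with Krt20 higher and Car1 lower. The part of these shifts in cell markers in the members' changes was not tested.

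**Figure D2:**
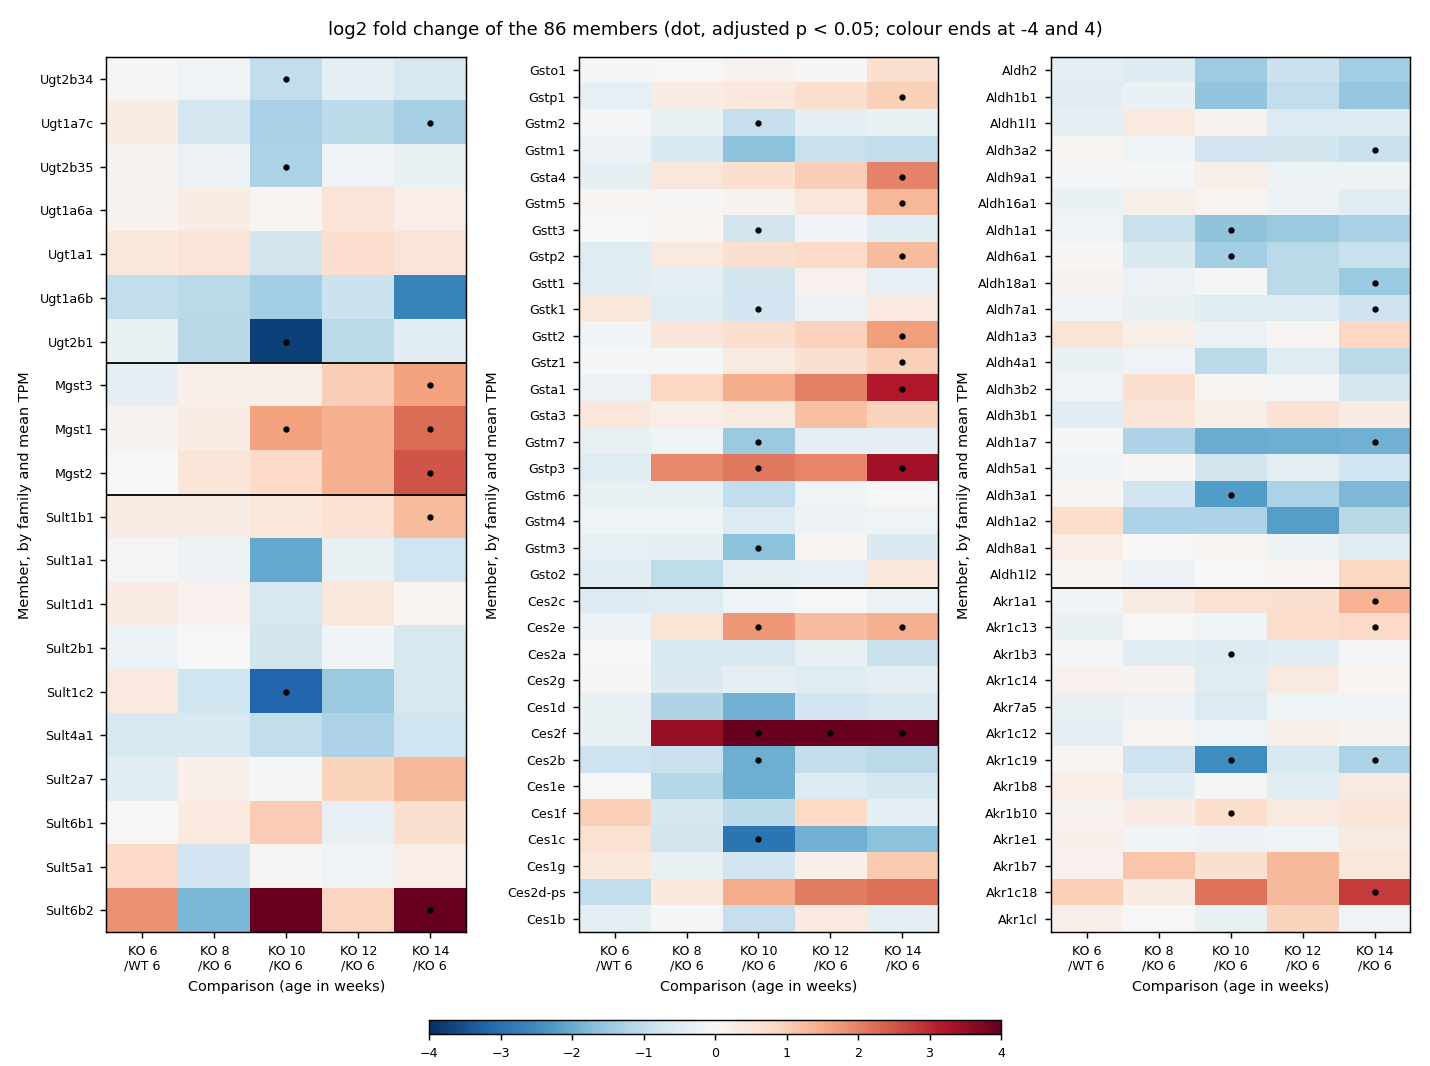
log2 fold change of each of the 86 members in 5 comparisons, each with the older or Il10KO group over Il10KO week 6 or WT; rows are ordered by family and mean TPM, dots mark calls with an adjusted p under 0.05, and colours end at -4 and 4. Ces2f is the one row with dots at weeks 10, 12 and 14.

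The Ugt genes fell or were not called at week 10. Ugt2b34, which holds 64.4% of the family's mean TPM, had 211, 232 and 261 CPM at week 10, against 465, 499 and 441 at Il10KO week 6. The groups were well apart, and the change was -1.0 ± 0.30 (edgeR adjusted p = 0.0307). Ugt2b35 fell by 1.26 ± 0.29 on the log2 scale (edgeR adjusted p = 0.0127), at 9.42, 15.8 and 17.5 CPM at week 10, against 34.5, 32.7 and 35.2 CPM at week 6. Ugt2b1 was called lower on very few reads, with 0, 2 and 0 counts at week 10, against 5, 23 and 6 at week 6. Ugt1a7c, the gene of the Ugt1 locus given the most estimated counts, had 83.6, 86.9 and 118 CPM at week 10, against 222, 250 and 234 CPM at week 6. Its groups did not overlap, yet its change of -1.29 ± 0.46 narrowly missed the threshold in edgeR (adjusted p = 0.0509).

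The Ugt1 genes cannot be counted independently. Each gene of the locus on mouse chromosome 1 has its own exon or exons at the 5′ end, spliced to the same following exon. Reads from the shared part therefore have to be divided among genes. The junctions of 4 annotated transcripts show this, with the last 40 bases of the gene's own exon in lower case and the first 40 bases of the shared exon (chr1:88215044-88215175, GRCm38, forward strand) in capitals.
Ugt1a7c: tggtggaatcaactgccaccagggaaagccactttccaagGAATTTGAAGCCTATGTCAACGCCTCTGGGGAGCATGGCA
Ugt1a1: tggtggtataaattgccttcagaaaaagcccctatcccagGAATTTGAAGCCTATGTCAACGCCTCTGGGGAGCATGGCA
Ugt1a6a: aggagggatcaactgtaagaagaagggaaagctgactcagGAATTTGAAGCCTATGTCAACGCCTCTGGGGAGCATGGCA
Ugt1a6b: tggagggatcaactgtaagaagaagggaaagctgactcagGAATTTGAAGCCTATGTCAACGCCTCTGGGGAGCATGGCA
The capitals are the same in all 4, and the lower-case ends of Ugt1a6a and Ugt1a6b are nearly alike. The Ugt1a6a transcript with the most counts, 7390 over the 18 libraries, begins with a further short exon and holds the same junction. Of the 31-base words of Ugt1a7c transcripts, 55.7% also occur in another gene. The transcripts differ in length at the 3′ end. That of Ugt1a7c runs 2316 bases past its first exon, against 1311 in the Ugt1a1, Ugt1a6a and Ugt1a6b transcripts shown. The part of this longer end in the counts given to Ugt1a7c was not tested.

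The division was uneven among libraries. Ugt1a7c took 72.3% to 91.8% of the locus in 16 libraries, but 44.5% and 60.4% in Il10KO week 14 replicates 2 and 3. In those libraries Ugt1a1, the bilirubin-conjugating enzyme, had 34.2 CPM in replicate 2 and 0 CPM in replicate 3. Replicate 3 instead had 502 estimated counts for Ugt1a8 and 115 for Ugt1a9, neither of which is in the gene table. The sum over the locus does not depend on that division: it was 90.4 and 90.3 CPM in these libraries and 223 CPM in week 14 replicate 1. At week 10 the locus sum was 93.8, 115 and 138 CPM, against 246, 272 and 257 CPM at Il10KO week 6, again without overlap.

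**Figure D3:**
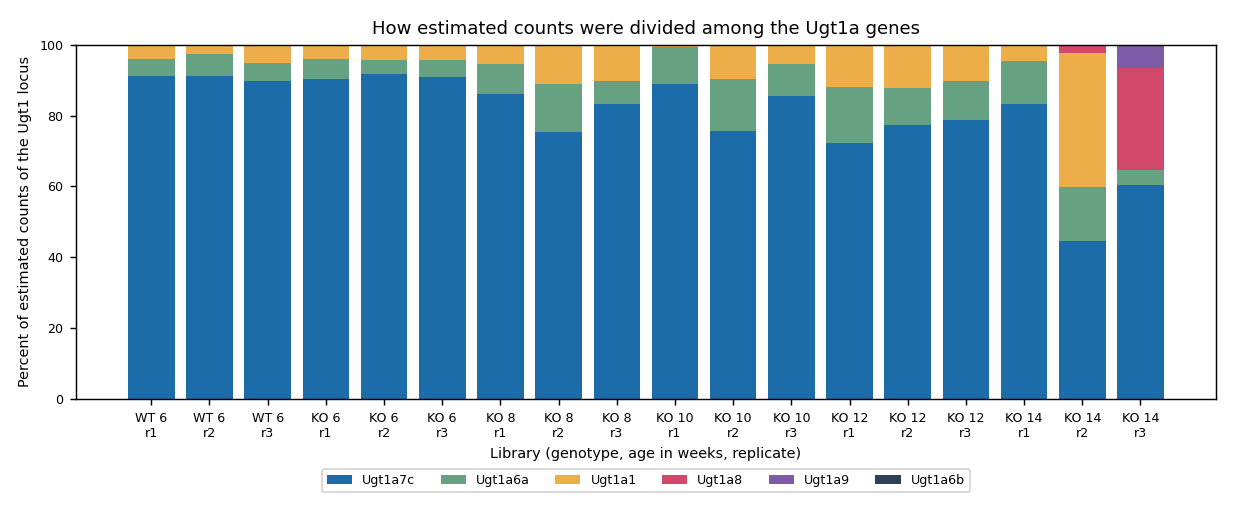
Share of the estimated counts of the Ugt1 locus given to each Ugt1a gene in each of the 18 libraries, by genotype, age in weeks and replicate, in percent. Ugt1a7c takes at least 60.4% of the locus in every library except Il10KO week 14 replicate 2, at 44.5%, and the division differs in Il10KO week 14 replicates 2 and 3, where Ugt1a1, Ugt1a8 and Ugt1a9 take larger or smaller shares.

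Among the sulfotransferases Sult1c2, which sulfates small phenols, was the one called at week 10. It had 2.34, 2.46 and 2.89 CPM at week 10, against 14.5, 33.8 and 21.3 CPM at Il10KO week 6. The fall of 3.17 ± 0.48 on the log2 scale was called by edgeR (adjusted p = 0.00217) and kept in all 19 alternatives. Sult1a1, the main phenol sulfotransferase, had 1.81, 51.7 and 33.8 CPM at week 10, against 143, 115 and 107 CPM at week 6. All 3 week 10 values were lower, but they spread so widely that the change of -2.06 ± 0.91 did not pass in edgeR (adjusted p = 0.0974). Its lowest value was in week 10 replicate 1, the library with the highest neutrophil sum of that age, whose part was not tested. Sult1b1, a thyroid hormone and phenol sulfotransferase and the most abundant of the family, had 385, 353 and 191 CPM at week 10, against 196, 271 and 216 CPM at week 6, and the groups overlapped. Sult6b2 had 41, 6 and 0 counts at week 10 and 25 and 28 counts in week 14 replicates 2 and 3, against 1 count over the 3 libraries of Il10KO week 6. It was called at week 14 (edgeR adjusted p = 0.0476), and with 1 count in the base its fitted fold is not given.

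Of the 20 Gst genes, 1 rose and 5 fell at week 10, or 5% and 25%, where 14.6% and 9.48% of all genes did. The mu class (Gstm), encoded together on chromosome 3, fell in 3 of 7 genes at week 10 and rose in none. Gstm3 had 0.730, 1.60 and 0.843 CPM at week 10, against 3.33, 2.88 and 3.70 CPM at week 6 (-1.64 ± 0.35, edgeR adjusted p = 0.00944), a call kept in 18 of 19 alternatives and lost with cage as a covariate (-1.60, edgeR adjusted p = 0.0699). Gstm7 fell by 1.5 ± 0.45 and Gstm2 by 0.91 ± 0.28 on the log2 scale (edgeR adjusted p = 0.0299 and 0.0322). Gstm1, one of the most abundant, had 22.6, 109 and 111 CPM at week 10, against 267, 239 and 244 CPM at week 6. It did not pass in edgeR (-1.63 ± 0.66, adjusted p = 0.0771), although no value overlapped. Gstm genes share sequence, 28.8% of the words of Gstm1 and 37.7% of those of Gstm3, so values of single genes in this class are uncertain. Gstk1, a kappa enzyme of mitochondria and peroxisomes, fell by 0.78 ± 0.26 and Gstt3 of the theta class by 0.75 ± 0.20 on the log2 scale (edgeR adjusted p = 0.0402 and 0.0191).

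Gstp3, of the pi class, was the Gst gene that rose at week 10, with 11.4, 6.72 and 3.73 CPM, against 1.87, 1.61 and 1.60 CPM at Il10KO week 6 (2.10 ± 0.58, edgeR adjusted p = 0.0232). Its week 10 values were spread over a wide range but all lay above week 6. The call was kept in 14 of 19 alternatives. Gsta4, an alpha enzyme that conjugates the lipid aldehyde 4-hydroxynonenal, had 100.2, 92.4 and 81.6 CPM at week 10, against 55.3, 63.8 and 58.4 CPM at week 6. It did not pass at week 10 in edgeR (0.63 ± 0.37, adjusted p = 0.192), but was called across the 5 ages (edgeR adjusted p = 0.0155). That call was lost without week 14 replicate 2, without week 14 replicate 3 and with cage as a covariate. It had 159, 76.9 and 111 CPM in week 12 libraries. Week 14 libraries had 85.7, 287 and 332 CPM. The leading enzymes Gsto1 and Gstp1 were not called at week 10.

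The microsomal enzymes rose or were not called in every comparison with Il10KO week 6. Mgst1, which conjugates glutathione and reduces lipid hydroperoxides, had 162, 276 and 163 CPM at week 10, against 72.9, 66.9 and 56.9 CPM at week 6. The rise of 1.61 ± 0.42 was called by edgeR (adjusted p = 0.0182) and no value overlapped. It stayed called in 14 of 19 alternatives. Week 8 libraries had 80.2, 83.6 and 80.2 CPM. Mgst1 stood at 224, 170 and 133 CPM in week 12 libraries and at 93.3, 464 and 361 CPM in those of week 14, where replicate 1 was the lowest. Mgst2 and Mgst3, relatives of leukotriene C4 synthase, had changes at week 10 of 0.77 ± 0.54 and 0.20 ± 0.42 that did not pass in edgeR (adjusted p = 0.268 and 0.712).

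The RefSeq promoter table (GRCm38.p6) holds a window for 70 of the 86 members, from 250 bases before to 50 after a start. The core of the antioxidant response element, through which NRF2 acts, was searched as TGACNNNGC on both strands and occurred for 8 of 70 members, or 11.4%, against 14.0% of 27025 genes. The xenobiotic response element core, GCGTG, bound by the aryl hydrocarbon receptor, occurred for 18 of 70, or 25.7%, against 35.2% of genes. Of the 5 members that rose at week 10, Mgst1 alone held the first motif, and its window before one start (chr6:138140277-138140526, forward strand) is shown because of it, with the match on the reverse strand in capitals.
Mgst1: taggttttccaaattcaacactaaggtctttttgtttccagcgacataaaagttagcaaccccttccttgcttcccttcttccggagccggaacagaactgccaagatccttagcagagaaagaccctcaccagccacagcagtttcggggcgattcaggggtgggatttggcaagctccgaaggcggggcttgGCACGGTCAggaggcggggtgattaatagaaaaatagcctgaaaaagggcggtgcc
A second Mgst1 window (chr6:138141337-138141586, forward strand) held no match. GENCODE places the start of the gene at base 138140316, inside the window shown and before the match. A match is a description of letters and not of binding. Among members that fell, Akr1c19 and Gstm7 also held the motif.

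The carboxylesterases held the largest called rise of the 86 genes at week 10. Ces2f had 79.3, 77.7 and 56.3 CPM at week 10, against 1.16, 2.40 and 1.63 CPM at Il10KO week 6 and 2.16, 2.05 and 2.05 CPM in WT. The week 10 libraries were alike and lay far above all 6 libraries of week 6. The change was 5.36 ± 0.86 (edgeR adjusted p = 0.00296), was called in all 19 alternatives and ranged there between 3.46 and 5.67. Ces2e, of the same cluster, had 218, 290 and 275 CPM at week 10, against 115, 54.0 and 67.1 CPM at week 6 (1.73 ± 0.33, edgeR adjusted p = 0.00514), also called in all 19. Ces2 enzymes hydrolyse ester drugs and acylglycerols in the gut and liver.

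Other carboxylesterases were lower or not called at week 10. Ces2c, the most abundant, had 231, 244 and 170 CPM at week 10, against 325, 194 and 202 CPM at week 6 (-0.16 ± 0.29, edgeR adjusted p = 0.665). Ces2b fell by 1.95 ± 0.67 on the log2 scale, at 1.19, 3.21 and 2.50 CPM at week 10, against 12.5, 6.73 and 7.46 CPM at week 6 (edgeR adjusted p = 0.0465). Ces1c, the esterase of mouse plasma, which lies apart from the Ces2 genes (chr8:93099015-93131283, reverse strand, GRCm38), fell by 2.93 ± 0.71 (edgeR adjusted p = 0.0147), at 0.0769, 0.649 and 0.331 CPM at week 10, against 2.51, 3.10 and 2.57 CPM at week 6. Of 19 alternatives, 9 kept the call of Ces2b and 17 that of Ces1c. Ces2f and Ces2e were the 2 genes of 13 in the family called higher, or 15.4%, near the 14.6% of all genes. The 2 called lower were also 15.4%, where 9.48% of all genes were. The difference between genes was not tested.

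Ces2f (chr8:104947356-104960047, forward strand) and Ces2e (chr8:104926260-104934672, forward strand; GRCm38) lie in 1 cluster. The 250 bases before each start are shown because both genes rose, with the longest run of letters common to both windows in capitals.
Ces2f, chr8:104947106-104947355: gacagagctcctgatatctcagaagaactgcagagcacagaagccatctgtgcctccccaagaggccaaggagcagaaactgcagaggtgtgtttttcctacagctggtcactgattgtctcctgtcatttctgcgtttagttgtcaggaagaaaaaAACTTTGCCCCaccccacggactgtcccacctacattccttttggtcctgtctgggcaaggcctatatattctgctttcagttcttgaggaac
Ces2e, chr8:104926010-104926259: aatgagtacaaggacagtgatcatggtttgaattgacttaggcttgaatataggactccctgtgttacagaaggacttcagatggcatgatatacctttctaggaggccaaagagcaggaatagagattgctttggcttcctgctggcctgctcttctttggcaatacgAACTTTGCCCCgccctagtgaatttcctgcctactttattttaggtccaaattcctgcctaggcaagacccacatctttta
The common run, AACTTTGCCCC, has 11 letters and begins 93 bases before the Ces2f start and 81 before that of Ces2e. On either strand it occurred in the same window of 6 of 27025 genes, or 0.0222%. Of the 5 Ces2 members with a window it was in Ces2a, Ces2e and Ces2f and not in Ces2c or Ces2g. Ces2a, which holds it, was not called at week 10, with 10.2, 90.1 and 75.9 CPM, against 100.2, 83.2 and 84.4 CPM at week 6. The run was picked from these 2 windows, and the genes share ancestry.

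The aldehyde dehydrogenases held 3 calls at week 10, all lower, although their summed TPM moved the most in size. That is 15% of the 20 genes, where 9.48% of all genes were called lower. Aldh1a1, which makes retinoic acid from retinal, fell by 1.61 ± 0.52 on the log2 scale, with 8.26, 20.7 and 30.4 CPM at week 10, against 76.0, 56.1 and 48.7 CPM at Il10KO week 6 (edgeR adjusted p = 0.0387). Aldh6a1, the methylmalonate semialdehyde dehydrogenase of valine breakdown, fell by 1.35 ± 0.40 (edgeR adjusted p = 0.0296). Aldh3a1, which oxidises medium-chain aldehydes, fell by 2.25 ± 0.74 and was at or below 1.33 CPM in each week 10 library (edgeR adjusted p = 0.0395). Of 19 alternatives, 10 kept the call of Aldh1a1 and 12 that of Aldh3a1.

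Aldh2 makes up most of the fall in summed TPM without a call. It had 87.0, 363 and 577 CPM at week 10, against 1014, 807 and 912 CPM at week 6. Replicate 1 was lower than the others by far, and the change of -1.41 ± 0.69 did not pass in edgeR (adjusted p = 0.125). Its mitochondrial relative Aldh1b1 had 17.7, 62.3 and 104 CPM at week 10, against 199, 163 and 186 CPM at week 6 (-1.58 ± 0.75, edgeR adjusted p = 0.118). For both genes week 10 and week 6 did not overlap. Over the 20 Aldh genes, 8 were lower without overlap at week 10 and 0 higher, where 30.3% and 27.5% of all genes were.

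The aldo-keto reductases held the member with the smallest p of all. Akr1c19, a reductase of the hydroxysteroid dehydrogenase group, had 8.84, 7.89 and 6.38 CPM at week 10, against 32.6, 55.8 and 41.5 CPM at Il10KO week 6 and 41.6, 41.5 and 40.8 CPM in WT. The week 10 libraries were alike and far below the others. The fall of 2.49 ± 0.33 on the log2 scale was called by edgeR (adjusted p = 0.0011) and in all 19 alternatives. Akr1b3, aldose reductase, fell by 0.53 ± 0.16, and Akr1b10, whose human counterpart reduces retinal and fatty aldehydes, rose by 0.69 ± 0.23 (edgeR adjusted p = 0.0313 and 0.0409). Akr1b10 had 18.7, 17.0 and 16.7 CPM at week 10, against 11.2, 11.03 and 10.2 CPM at week 6, a small difference on this scale. In TPM the groups overlapped, at 14.2, 13.8 and 19.1 at week 10, against 14.8, 13.9 and 13.6 at week 6. The call was kept in 10 of 19 alternatives, with changes from 0.13 to 0.82. Both TPM scales, library size in place of TMM and cage as a covariate were among those that lost it. The leading reductase Akr1a1 was not called at week 10.

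**Figure D4:**
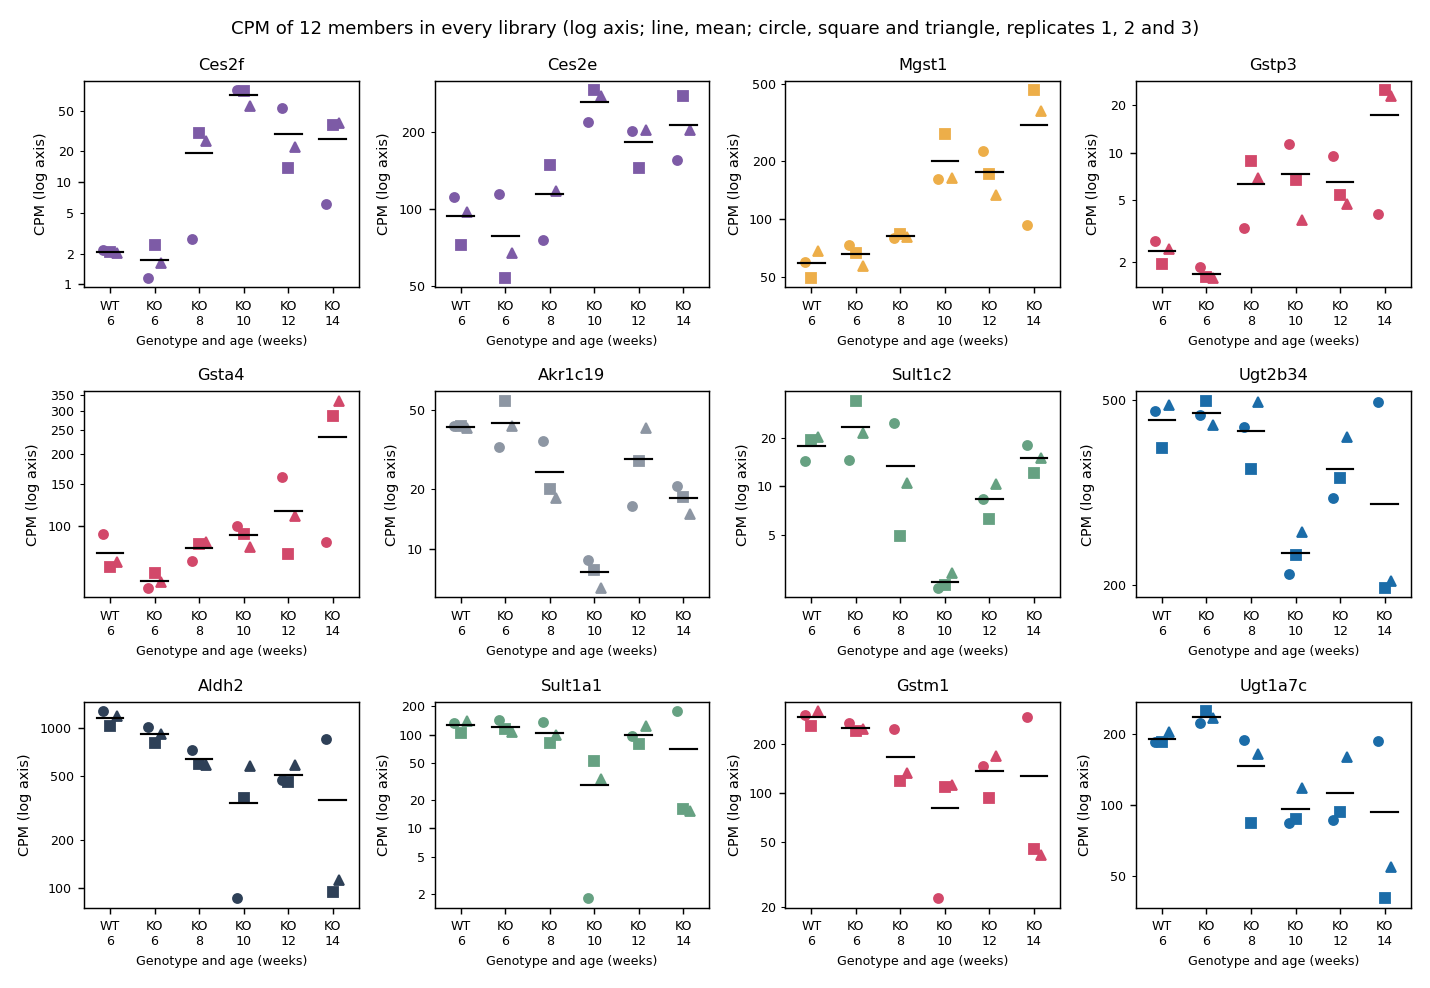
CPM of 12 members in every library on log axes, by genotype and age in weeks; circles, squares and triangles are replicates 1, 2 and 3 and the line is the mean of 3. Ces2f, Ces2e and Mgst1 lie above their week 6 values in every week 10 library, and Akr1c19 and Sult1c2 below, while Aldh2, Sult1a1 and Gstm1 show a very low week 10 replicate 1.

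The number of calls at week 10 depended on the fit. With cage as a covariate it was 5, Ces2f and Ces2e higher and Akr1c19, Sult1c2 and Sult1d1 lower, where 3.26% of all genes were called; that fit has 7 residual degrees of freedom, against 12. Without week 10 replicate 1 it was 8, where 6.68% of all genes were called. Without replicate 1, 2 or 3 of Il10KO week 6 it was 7 each time, where 4.7%, 6.09% and 6.76% of all genes were called. Without the week 14 libraries it was 43, with 10 higher and 33 lower, where 51.6% of all genes were called, 24.7% higher and 27% lower.

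At week 12 1 member was called by the fit of all groups. This was Ces2f, at 53.9, 13.7 and 22.1 CPM in week 12 libraries, against 1.16, 2.40 and 1.63 CPM (4.11 ± 0.81, edgeR adjusted p = 0.0315), with 1.85% of all genes called. The median change of the members was -0.14, against 0.00 over all genes. Gsta1, an alpha-class enzyme, was at 29.0, 11.1 and 16.2 CPM, against 3.30, 4.14 and 6.49 CPM at week 6, without a call (2.01 ± 0.64, edgeR adjusted p = 0.0907). Without overlap of the groups, 25 members were higher and 23 lower at week 12, where 32.8% and 32.9% of all genes were, against 12 and 30 at week 10, where 27.5% and 30.3% were. In a fit of week 12 and week 6 alone, 44 members were called, 24 higher and 20 lower, where 59% of all genes were called, 29.5% in each direction. The like fit of week 10 and week 6 called 26 members, where 40.1% of all genes were called. With cage as a covariate 0 members were called at week 12, where 0.0123% of all genes were. Leaving out any 1 of those 6 libraries left 0 members called in the fit of all groups.

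Compared directly, week 12 stood above week 10 in most members. The change was positive for 66 of 86 members, where 8065 of 16300 genes had a positive change. The median was 0.33 over the members and -0.01 over all genes. Akr1c19 and Gstm3 were called higher, where 0.448% of all genes were called. Akr1c19 had 16.5, 27.9 and 40.9 CPM at week 12, against the 8.84, 7.89 and 6.38 CPM of week 10 (1.88 ± 0.33, edgeR adjusted p = 0.0277). Gstm3 had 3.90, 3.05 and 3.66 CPM at week 12, against 0.730, 1.60 and 0.843 CPM at week 10 (1.74 ± 0.35, edgeR adjusted p = 0.0435). All 7 Ugt and 18 of 20 Gst changes were positive. DESeq2, which called 5.06% of all genes, called 7 members higher, both of these with Sult1c2, Sult1d1, Ugt2b35, Akr1c13 and Gstt3. Without week 10 replicate 1 or replicate 3, or week 12 replicate 2 or replicate 3, 0 were called, and likewise with cage as a covariate, which called 0% of all genes.

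Week 14 brought 18 members called higher and 6 lower against Il10KO week 6, where 33.1% of all genes were called, 24.5% higher and 8.56% lower. The largest rises with reads in both groups were Ces2f (3.94 ± 0.81), Gstp3 (3.35 ± 0.61), Gsta1 (3.21 ± 0.67), Akr1c18, which inactivates progesterone (2.79 ± 0.85), Mgst2 (2.50 ± 0.57), Mgst1 (2.22 ± 0.43) and Gsta4 (1.99 ± 0.38), with edgeR adjusted p from 0.00616 to 0.024. All 3 Mgst and 8 Gst genes were among the rises. The falls were 4 Aldh genes, Ugt1a7c and Akr1c19: Aldh1a7 by 1.93 ± 0.70, Aldh18a1, which makes the proline precursor, by 1.49 ± 0.47, Ugt1a7c by 1.33 ± 0.46, Akr1c19 by 1.26 ± 0.32, Aldh3a2, the fatty aldehyde dehydrogenase, by 0.88 ± 0.29 and Aldh7a1, of lysine breakdown, by 0.83 ± 0.29 on the log2 scale (edgeR adjusted p from 0.00997 to 0.0459).

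In all 24 called members week 14 replicate 1 was the library closest to the week 6 mean. In 18 of them it still lay outside the week 6 range in the direction of the call, and in 6 within that range. Gstp3 had 4.08, 24.96 and 23.1 CPM at week 14, against 1.87, 1.61 and 1.60 CPM at week 6. Mgst2 had 43.5, 274 and 232 CPM at week 14, against 39.9, 29.2 and 27.8 CPM at week 6. Gsta1 had 5.88, 67.2 and 56.5 CPM at week 14, against 3.30, 4.14 and 6.49 CPM at week 6. In these 3 genes replicates 2 and 3 lay far above both replicate 1 and week 6. Ces2e had 156, 276 and 203 CPM at week 14, against 115, 54.0 and 67.1 CPM at week 6, all 3 of them above. Neutrophil markers had the same split, with sums of 3.21, 15150 and 9910 CPM at week 14, against 3.30, 2.56 and 2.60 CPM at week 6, and 6 of 6 were called higher. Their part in the members' changes was not tested. With RNA integrity or cage as a covariate 0 members and 0% of all genes were called. Without replicates 2 and 3 the remaining library is assumed to vary like the other groups, and 0% of all genes were called, so that fit says nothing about the members. Without replicate 1 there were 55 calls, 26 higher and 29 lower, with 69.5% of all genes. Without replicate 2 there were 9, with 11.5% of all genes, and without replicate 3 there were 10, with 13.8%. Without replicate 1, 2 or 3 of week 6 there were 14, 14 and 13, with 16.8%, 17% and 15.9% of all genes.

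The direction at week 14 also depended on the scale. With TMM, 40 changes of members were positive and 46 negative, where 7860 and 8437 of all genes were. With library size in place of TMM, which put the median of all genes at -0.56 rather than -0.06, 7 members were called higher and 1 lower, with 9.82% and 2.07% of all genes. On log2(TPM + 1), where the median of all genes was -0.74, limma called 5 higher and 49 lower, with 5.39% and 54.6% of all genes. The 5 higher on every one of these scales were Ces2f, Gsta1, Gstp3, Mgst1 and Mgst2. Gstp1, Gstp2, Gstm5, Gstz1, Akr1a1, Akr1c13 and Sult1b1, called higher with TMM, had negative changes on log2(TPM + 1) that did not pass.

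Changes at the later ages ran with transcript length over the whole table. When genes were put into 4 length classes of equal size, the shortest class, up to 1570 bases, had a median change of 1.30 at week 14 and the longest class, above 3761 bases, -0.91. Of the shortest class 54.5% were called higher. The members called higher at week 14 had a median length of 1142 bases and those called lower 2532, and 15 of the 18 higher members lay in the shortest class, which holds 39 of the 86. Median lengths were 985 bases for Mgst, with 3 of 3 called higher at week 14, 1133 for Gst, with 8 of 20 called higher and 0 lower, and 2551 for Aldh, with 4 of 20 called lower and 0 higher. The part of length in these changes was not tested. Ces2f, at 4052 bases, is in the longest class.

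At week 10 the same medians were 0.69 in the shortest class and -0.61 in the longest. The 39 short members had a median of -0.09 at week 10, against the 0.69 of all genes of that class, and the 27 of the next class -0.72, against 0.19. Sult1c2 (1846 bases), Akr1c19 (1316 bases) and Gstm3 (1311 bases) fell at week 10 in classes whose median was above 0. Ces2f rose in the class whose median was lowest, and Gstp3 (690 bases) and Mgst1 (985 bases) rose in the class whose median was highest.

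**Figure D5:**
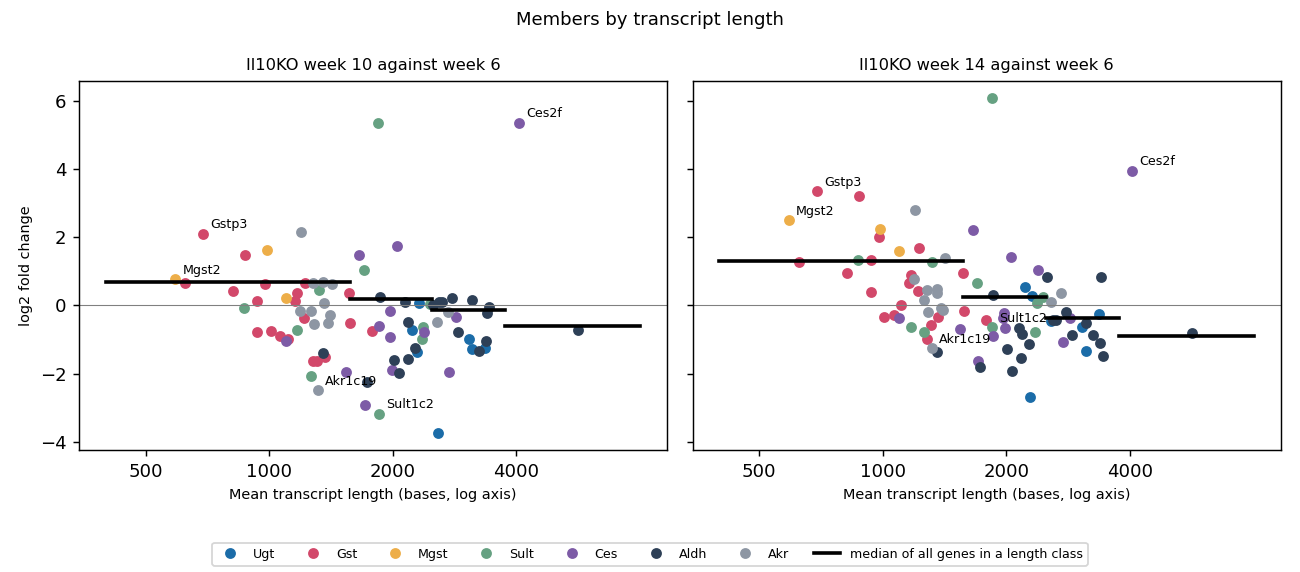
log2 fold change of each member at week 10 (left) and week 14 (right) against Il10KO week 6 by mean transcript length in bases on a log axis, coloured by family; black lines are medians of all genes in each of 4 length classes. At week 14 the short Gst genes are spread from -0.98 (Gstm1) to 3.35 (Gstp3), on both sides of the 1.30 of their class, while Ces2f lies far above its class at both ages.

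Across the 5 Il10KO ages together 21 of 86 members were called, where 27.4% of all genes were. They were 9 of 20 Gst, 3 of 3 Mgst, 3 of 13 Ces, 3 of 13 Akr, 2 of 10 Sult, 1 of 7 Ugt and 0 of 20 Aldh genes. The smallest p belonged to Akr1c19 (edgeR adjusted p = 0.0112), Sult1c2, Ces2f, Mgst1, Gsta4 and Ces2e (each 0.0155), Gstp3 (0.0163), Gsta1 (0.0176), Gstm3 and Mgst2 (each 0.0192). Without week 14 replicate 1 the count was 58, with 71.6% of all genes, without replicate 2 it was 7, with 7.73%, and without replicate 3 it was 8, with 10.8%. Without replicate 1, 2 or 3 of week 6 it was 10, 9 and 9, with 8.65%, 9.87% and 9.58%. With cage as a covariate it was 0, with 0.00613%.

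Genes that feed or surround these enzymes are set here beside the 14.6% of all genes called higher and the 9.48% called lower at week 10. Of 8 genes listed for the supply of glucuronic acid or sulfate donors, 2 rose and 2 fell. Ugdh, which makes UDP-glucuronic acid, had 69.8, 117 and 101 CPM, against 332, 206 and 224 CPM at week 6 (-1.41 ± 0.43). Papss1, which makes the sulfate donor, fell by 1.46 ± 0.36. The membrane transporters Slc35b1 (1.58 ± 0.44) and Slc35d1 (0.86 ± 0.19) rose, and what they carry here was not tested. Nothing here ties Slc35b1 to either donor, so its rise is not read as a change in donor supply. The edgeR adjusted p of the called genes ran from 0.0101 to 0.0336. Of 8 efflux and uptake carriers listed beside these enzymes, 1 was called. This was the efflux pump Abcb1a, at 9.76, 25.4 and 32.7 CPM, against 528, 442 and 479 CPM at week 6 (-4.42 ± 1.09, edgeR adjusted p = 0.0154). Whether Abcb1a carries conjugates here was not tested. Of 11 glutathione genes, Chac1, Ggct and Gsr rose and Anpep fell.

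Other NRF2 targets rose in 5 of 17 (29.4%) and fell in none at week 10. They were Gpx2, a glutathione peroxidase of gut epithelium (2.87 ± 0.69), the cystine carrier Slc7a11 (1.94 ± 0.57), Txnrd1 (1.44 ± 0.34), Gsr (1.31 ± 0.30) and Srxn1 (1.21 ± 0.31), with edgeR adjusted p from 0.0118 to 0.0291. At week 14 7 of 17 rose (41.2%), where 24.5% of all genes did. Gpx2 then had 184.5, 2490 and 2636 CPM, with replicate 1 inside the week 6 range and replicates 2 and 3 far above it. Replicates 2 and 3 are both neutrophil-rich and of low RNA integrity (6.5 and 5.8). With RNA integrity as a covariate 0% of all genes were called at week 14. Gpx2 had 2622, 935 and 765 CPM at week 10, against 167, 193 and 230 CPM at week 6, highest in the neutrophil-rich replicate 1. The parts of neutrophils and of RNA integrity in these rises were not tested. Of 18 regulators, Nr1h4, the bile acid receptor FXR, rose by 1.81 ± 0.39 and Tiparp by 1.33 ± 0.27, and Ahrr fell by 1.67 ± 0.48 (edgeR adjusted p = 0.01, 0.0078 and 0.0275); Tiparp and Ahrr are both targets of the aryl hydrocarbon receptor. Nr1h4 had 95.4, 91.9 and 59.2 CPM at week 10, against 20.2, 28.3 and 22.0 CPM at week 6, and stayed called at week 12 and week 14.

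Of 13 reductases and oxidases outside the named families, 4 rose and 3 fell at week 10. Dhrs9, a retinol and steroid dehydrogenase, had 159, 32.6 and 83.6 CPM at week 10, against 2.78, 6.51 and 3.26 CPM at week 6 (4.46 ± 0.74). Xdh, xanthine dehydrogenase, rose by 3.24 ± 0.50, and the retinol dehydrogenases Rdh16 and Rdh10 by 2.20 ± 0.43 and 1.76 ± 0.53. The alcohol dehydrogenases Adh1 and Adh7 fell by 1.54 ± 0.45 and 1.2 ± 0.38, and the retinal reductase Dhrs3 by 0.70 ± 0.20 (edgeR adjusted p from 0.00275 to 0.0365). Aldh1a1, which acts on the retinal these enzymes form or remove, was lower.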

How the data were processed

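Distal colon RNA of 18 mice was measured as polyadenylated RNA with paired reads. The submitters' processing notes name kallisto, FastQC and genome build mm10; versions and the annotation release are not given in the sources used here. The deposited gene table holds the authors' expected counts, rounded here to whole numbers, for genes with at least 50 counts in all, and a second deposited table holds TPM. Deposited transcript tables hold estimated counts and TPM per transcript, per the file headers.

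Members were matched by symbol, and positions, lengths and shared 31-base words came from GENCODE M21 (GRCm38), to whose symbols 97.68% of 119414 transcripts matched. Members and lists were chosen with earlier results of these data known. Counts were tested in edgeR 4.0.16 (TMM, filterByExpr, quasi-likelihood F-test, prior count 0.125, two-sided, Benjamini-Hochberg over 16300 genes, threshold 0.05) fitting 6 group means to all 18 libraries at once; the SE is the unshrunken change over the square root of F. A count of 0 allows up to 3 counts, 0.079 to 0.187 CPM by library, for counting error only. Alternatives used DESeq2 1.42.0 and limma 3.58.1 in R 4.3.3, figures matplotlib 3.10.9. Steps were tested on simulated data.

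Genes were named by rule: the 3 most abundant per family, up to 8 called rises and falls per comparison, the 10 smallest p across ages and up to 4 called genes per list. Other named genes, such as Sult1a1, Gstm1, Aldh1b1 and Ces2a, were chosen after their values were seen. Leaving out week 14 replicates 2 and 3, library size in place of TMM, and cage as a covariate were added after seeing the data.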

Additional observations from a re-analysis of the deposited data

How the results depend on the processing

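Of 30 pairs of a named gene and a comparison, tried under 566 alternatives in all, 360 kept direction and side of the threshold, 203 kept direction and lost the call, and 3 reversed. Sult6b2 at week 14 was -1.60 with RNA integrity as a covariate and -1.90 without week 14 replicates 2 and 3, and with 1 count in its base and 0 in replicate 1 neither sign can be read; Akr1c18 was -0.51 without them. Counts of members called are given with the share of all genes called in the same fit in brackets. For Il10KO against WT at week 6, voom called 1 (2.17%). For week 8 DESeq2 called 2 (1.47%), RNA integrity as a covariate 2 (1.18%) and the fit without week 14 called 1 (0.828%), with 0 to 1 when 1 library was left out. For week 10, where 21 were called (24%), voom called 38 (43.1%), the RNA integrity covariate 36 (46.5%), the fit without week 14 called 43 (51.6%) and cage as a covariate 5 (3.26%), with 7 to 24 when 1 library was left out. For week 12, where 1 was called (1.85%), DESeq2 called 15 (15.5%), limma on log2(TPM + 1) 3 (4.07%), voom 47 (61.9%), the RNA integrity covariate 26 (35.3%), the compared groups alone 44 (59%), the fit without week 14 called 28 (41.3%), WT as the base 4 (3.75%) and cage 0 (0.0123%), with 0 to 0 on leaving out 1 library. For week 14, where 24 were called (33.1%), limma on log2(TPM + 1) and on log2(TPM + 0.1) called 54 each (60% and 61.8%), voom 4 (8.45%) and library size in place of TMM 8 (11.9%). The RNA integrity covariate, cage, the compared groups alone and the fit without week 14 replicates 2 and 3 called 0 each (0%), with 9 to 55 on leaving out 1 library. For week 12 against week 10, where 2 were called (0.448%), DESeq2 called 7 (5.06%), the RNA integrity covariate 8 (6.32%) and the fit without week 14 called 7 (6.78%). Both TPM scales, voom, the compared groups alone, library size and cage called 0 (0% to 1.17%), with 0 to 2 on leaving out 1 library. Across the ages, where 21 were called (27.4%), log2(TPM + 1) gave 33 (41.5%), voom 50 (60%), the Il10KO groups alone 12 (13.2%), no week 14 libraries 41 (50.2%), no week 14 replicates 2 and 3 gave 35 (42.8%), library size 10 (8.9%) and cage 0 (0.00613%), with 7 to 58 on leaving out 1 library. Replicate numbers did not pair the libraries (correlations of deviations from group means -0.246 to 0.237). With the replicate block, 17 members were called at week 10 (18.7%), 1 at week 12 (1.52%), 25 at week 14 (34.5%), 1 for week 12 against week 10 (0.245%) and 17 across the ages (20.9%). The same correlations between Il10KO libraries of different ages had a median of 0.008 over 14 pairs from 1 cage and 0.006 over 76 pairs from different cages. The cage fit holds fewer residual degrees of freedom, 7 against 12; the cause of the other changes was not tested. Depth limits Ugt2b1 and Sult6b2, whose calls rest on groups with counts near 0.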

Other observations

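The deposited gene table leaves out 44 annotated genes with these names. By transcript, 545.8 estimated counts over the 18 libraries were given to Ugt1a8, of which 502 lay in Il10KO week 14 replicate 3, 155 to Ugt1a9, 95.9 to Gsta2, 77 to Ces2h, 44 to Ugt2b36 and 31 to Ugt2b5. Gsta1 shares 92.9% of its 31-base words with other genes, chiefly Gm3776. Summed over Gsta1, Gsta2 and Gm3776 the level was 11.2, 152 and 129 CPM at week 14, against 7.49, 10.9 and 11.3 CPM at Il10KO week 6, so the split seen in Gsta1 was also present in the sum. Gstp1 and Gstp2 together had 127, 292 and 271 CPM at week 14, against 128, 95.1 and 124 CPM at week 6, and Akr1c12 and Akr1c13 together 133, 215 and 197 CPM at week 14, against 126, 107 and 123 CPM at week 6.

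Within week 10, members differed in how far replicate 1 stood from the others. Sult1a1, Gstm1, Gstm7, Ces2a, Aldh2, Aldh1b1 and Akr1c14 were each lowest in replicate 1, as with Akr1c14 at 31.8 CPM, against 135 and 122 CPM, whereas Ces2f, Ces2e, Akr1c19 and Sult1c2 were at like levels in all 3 libraries.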
